A study of Mus musculus with 20 samples.

Results

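Non-growing oocytes from mouse ovaries at postnatal day 5 (P5) were compared between Chd4 knockouts and controls by RNA sequencing, with 2 libraries in each group. The genes described were those at 1 TPM (a transcript level scaled for gene length and library size) or more in at least 2 of these 4 libraries, which were 16112 of the 53722 genes in the deposited oocyte table. The knockouts, labelled DcKO, had the genotype Chd4 f/-; Ddx4-Cre Tg/+, with 1 floxed and 1 null allele. The controls, labelled Dctrl, had the genotype Chd4 f/+; Ddx4-Cre Tg/+, so they also carried the Cre transgene and 1 floxed allele and were not wild type. Cre in both groups was driven from Ddx4, a germ cell gene, and all animals were on a mixed background of C57BL/6, 129S1/Sv and FVB/NJ. The labels do not say whether replicates came from separate animals or how many oocytes were pooled, so the tests measure the spread between these libraries, which may be technical. Libraries of postnatal day 1 (P1) non-growing oocytes with the same alleles and Cre, 2 in each group, and of postnatal day 10 (P10) non-growing oocytes, 2 Chd4 f/f controls without Cre and 2 Chd4 f/f; Gdf9-iCre Tg/+ knockouts, were used for comparison. Growing oocytes at P10 also entered the fit, with 2 control and 2 knockout libraries. They are labelled Gctrl and GcKO, as the P10 non-growing ones are. In all, 16 oocyte libraries entered the same statistical fit.

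CHD4 is the ATP-dependent motor of the NuRD (nucleosome remodelling and deacetylase) complex, which slides nucleosomes, removes acetyl groups from histones and is best known for keeping genes silent. Around birth, mouse oocytes pass through meiotic prophase, when homologous chromosomes are held together by the synaptonemal complex, and then arrest and are enclosed in primordial follicles as small non-growing oocytes. These oocytes form the ovarian reserve, and they begin to build up the transcripts for the zona pellucida, for oocyte-secreted factors and for proteins that act in the egg and early embryo.

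In the knockout libraries 3 of 11 genes tested of the synaptonemal complex and its HORMA-domain partners were higher than in the controls. So were 8 of 81 nuclear genes of oxidative phosphorylation and 28 of 837 genes of the X chromosome. Khdc1b, Khdc1a, Elobl, Nlrp14 and Ooep, all oocyte genes, were lower. Most of these calls rested on single libraries, as described below. By limma on log2(TPM + 1), with Benjamini-Hochberg adjustment over the 20470 genes tested, 278 genes passed an adjusted p of 0.05, which was 1.36% of the genes tested. Of these 214 rose (1.05%) and 64 fell (0.313%). All 278 met the 1 TPM rule for P5 and made up 1.73% of the 16112 genes, and in all 278 the 2 knockout libraries lay outside the range of the 2 controls. Such separation is common with 2 libraries a group, since both knockouts lay above both controls in 23.9% of the genes tested and below both in 23.4%. Where a gene past the test is described below as separate between groups, this is no further support for its call. At an unadjusted p of 0.05, 2421 genes (11.8%) passed. With the P5 groups fitted alone, without the spread of the other oocyte groups, none passed by limma and 3437 had an unadjusted p under 0.05. The median log2 fold change was 0.00 over all genes tested and -0.01 over the 16112 genes. Log2 fold changes here are on the log2(TPM + 1) scale, knockout minus control, with the standard error (SE) of the fit, and they understate the change of genes near 1 TPM. In bulk RNA, fewer oocytes of a kind and less RNA per oocyte cannot be told apart.

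The genes past the test were a mixture of well-covered and sparse ones. Among the 278 genes, 159 were annotated as protein-coding (114 higher, 45 lower), 42 as lincRNA (38 higher, 4 lower) and 19 as processed pseudogenes (14 higher, 5 lower). At a mean of 50 TPM or more in 1 of the groups there were 65, of which 37 rose and 28 fell, so most of the excess of rises was among genes below that level. Listed at 0 in both controls were 87 of the 214 that rose, and 17 of the 64 that fell were listed at 0 in both knockouts. Of the 272 genes for which read numbers could be recovered, 96 had under 50 reads in each of the 4 libraries.

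**Figure D1:**
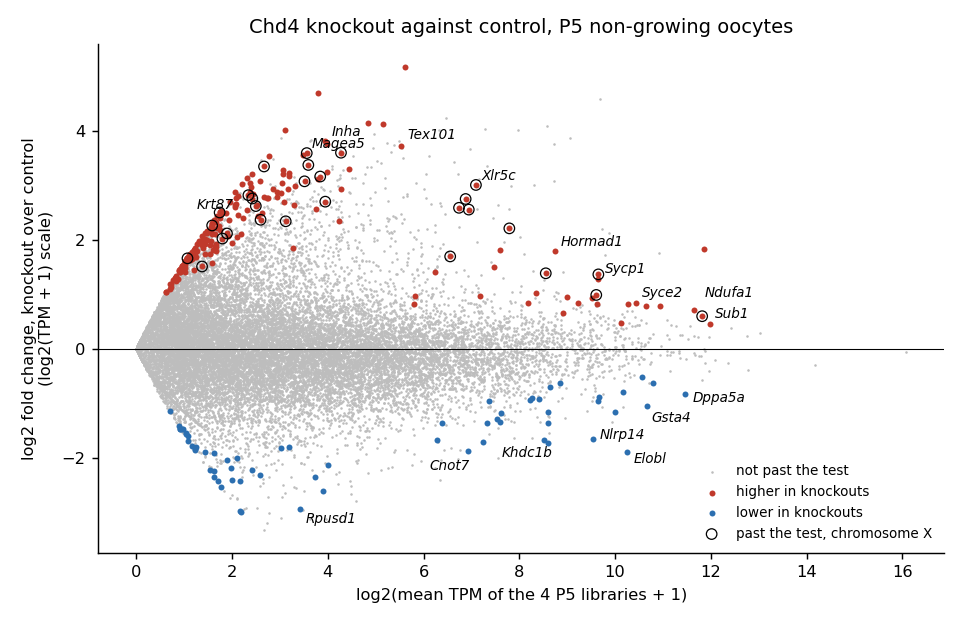
Log2 fold change, knockout minus control at P5 (y axis), against the log2 of the mean TPM + 1 over the 4 P5 libraries (x axis), 1 point per gene; red points rose, blue points fell, grey points did not pass the limma test, and ringed points are genes of the X chromosome past the test. The 214 rises spread to low levels at the left, while the 28 falls at 50 TPM or more stand at the right.

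The 4 libraries held between 20960000 and 22180000 recovered reads, to 4 digits, so depth was alike in both groups. The Pearson correlation of log2(TPM + 1) across genes was 0.937 between the controls and 0.945 between the knockouts, and it was 0.926 between control replicate 1 and knockout replicate 1 but 0.876 between control replicate 2 and knockout replicate 2. Control replicate 2 also had the fewest genes at 1 TPM or more, 14305, and knockout replicate 2 the most, 16264. These 2 libraries bore on most calls. With control replicate 2 left out 22 genes passed, of which 20 were among the 278, and with knockout replicate 2 left out 22 passed, of which 11 were among the 278. Without control replicate 1 the count was 396, and without knockout replicate 1 it was 104. In these fits the lone library of a group is assumed to vary as the other groups do. The minimum of 1 TPM in 2 libraries was applied again to the libraries left. A gene that needed the missing library to reach it was not tested and counts here as not kept. Krt87, for example, was not tested with either knockout library left out. Of the 278 genes 3 passed whichever library was left out. They were Khdc1b, the long noncoding RNA Gm15389 and Hs3st6, which encodes a heparan sulfate sulfotransferase.

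Chd4 itself stood at 14.5 and 17.9 TPM in the P5 controls and at 8.28 and 4.94 TPM in the knockouts. Both knockout libraries were below both controls, but the log2 fold change of -1.20 (SE 0.50) did not pass the test (limma adjusted p = 0.351). At P1 the values were 24.6 and 31.2 TPM in controls against 4.32 and 1.9 TPM in knockouts (limma adjusted p = 0.0136). A gene-level TPM can also count exons outside a deleted part of the gene. None of the 14 NuRD genes tested passed by limma, none passed by voom, and 2 had an unadjusted p under 0.05. Rbbp7, which encodes a histone-binding subunit, had the smallest p of the list, with 443 and 513 TPM in controls against 346 and 343 TPM in knockouts (limma adjusted p = 0.29).

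All 12 oocyte markers checked, among them Ddx4, Dazl, Nobox, Figla and Lhx8, were at 1 TPM or more in each of the 4 libraries, in keeping with an oocyte label. Markers of other cells were present at low levels, and for supporting, surface epithelium, endothelial and muscle cells the summed level was higher in both knockouts than in both controls. The 22 markers of granulosa or other supporting cells summed to 34.9 and 20.5 TPM in controls and to 59.0 and 107.9 TPM in knockouts, with 6, 9, 6 and 4 of them at 0 in the same order of libraries. Inha, which encodes the inhibin alpha subunit, made up 43.8 TPM of the sum in knockout replicate 2. The summed level of 9 surface epithelium markers was 18.8 and 4.5 TPM in controls against 32.9 and 28.7 TPM in knockouts, and that of 12 endothelial markers 19.7 and 8.6 against 29.7 and 31.0 TPM. Blood markers summed to 72.2 and 40.6 TPM against 64.5 and 92.6 TPM, and stromal markers to 30.0 and 34.8 against 31.4 and 63.0 TPM, with overlap between the groups. The 20 muscle markers summed to 239.6 and 238.0 TPM against 363.3 and 345.6 TPM, with 10, 12, 7 and 9 of them at 0. Most of each sum was 1 gene, Mylpf, at 180 and 158 against 307 and 308 TPM. Tnnt1, another of these markers, went the other way, at 53.5 and 74.9 against 37.4 and 22.3 TPM. Inha was the only gene of these lists that rose, and H2-DMb1, an antigen-presentation gene of the blood list, the only one that fell, from 8.35 and 3.23 to 0 and 0.402 TPM (limma adjusted p = 0.0446), a call that was lost without any 1 of the 4 libraries (from 0.0788 to 0.214). Of the 22 supporting-cell markers 11 were high enough to be tested, with 8 above 0 and 3 below. Among those too low to be tested, Foxl2 stood at 0.034 and 0.102 TPM in controls against 0.884 and 0.553 TPM in knockouts. Irx3, also not tested, went the other way, from 1.72 and 0.201 TPM to 0 in both knockouts. The part of these cells in the results was not tested.

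The synaptonemal complex is built from lateral elements (SYCP2, SYCP3), transverse filaments (SYCP1) and central element proteins (SYCE1 to SYCE3, TEX12), and HORMAD1 coats unsynapsed chromosome axes. Of the 11 genes on this list 3 rose and none fell, 27.3% against 1.36% of all genes tested, and the median log2 fold change was 0.38 with 10 of 11 above 0. Syce2 stood at 1077 and 919 TPM in controls and at 1679 and 1887 TPM in knockouts (log2 fold change 0.84, SE 0.11, limma adjusted p = 0.00595). Sycp1 stood at 569 and 366 TPM against 1055 and 1188 TPM (1.29, SE 0.25, limma adjusted p = 0.0306). Hormad1 stood at 234 and 149 TPM against 554 and 763 TPM (1.80, SE 0.33, limma adjusted p = 0.0238). In each of the 3 genes the lower of the controls was replicate 2, and both knockouts lay well above both controls. Sycp3, the most abundant gene of the list, had 4891 and 4635 TPM against 5967 and 6416 TPM and did not pass (limma adjusted p = 0.256). All 3 calls were lost without control replicate 2 (limma adjusted p = 0.0633 for Syce2, 0.304 for Sycp1 and 0.255 for Hormad1) and without knockout replicate 2 (0.0711, 0.202 and 0.198), and those of Sycp1 and Hormad1 also without knockout replicate 1 (0.105 and 0.0695). With voom on recovered reads 4 genes of the list rose, these 3 and Sycp3. Without a mean-variance trend all 3 calls were lost. That of Sycp1 was also lost with a minimum of 5 TPM and with no minimum.

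At P1 none of the 3 genes passed the test. Syce2 had 2026 and 1824 TPM in P1 controls and 1749 and 1669 TPM in P1 knockouts, Sycp1 1381 and 1367 against 1212 and 1477 TPM, and Hormad1 427 and 527 against 407 and 525 TPM. For all 3 genes both P5 controls lay below every P1 value. The knockout effect on Syce2 was 1.01 (SE 0.15) larger at P5 than at P1 on the log2 scale (limma adjusted p of the difference = 0.019). For Hormad1 the difference of the effects was 1.83 and for Sycp1 1.33, and neither passed (limma adjusted p = 0.152 and 0.179).

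The promoters of these 3 genes are shown because all 3 hold a CACGTG and those of Syce2 and Hormad1 also an E2F motif. The windows run from 250 bases before to 50 bases after the transcription start in RefSeq (GRCm38.p6) and are printed 5′ to 3′ on the strand of the gene, with matches in capitals. CACGTG is the palindromic E-box read by basic helix-loop-helix proteins, and GGCGGGAA is the E2F motif TTCCCGCC on the other strand. Sycp1 lies at chr3:102936051-102936350 on the minus strand, Syce2 at chr8:84872008-84872307 on the plus strand and Hormad1 at chr3:95559427-95559726 on the plus strand. For Syce2 and Hormad1 the table holds 2 windows each, and the window with more matches is shown.
Sycp1: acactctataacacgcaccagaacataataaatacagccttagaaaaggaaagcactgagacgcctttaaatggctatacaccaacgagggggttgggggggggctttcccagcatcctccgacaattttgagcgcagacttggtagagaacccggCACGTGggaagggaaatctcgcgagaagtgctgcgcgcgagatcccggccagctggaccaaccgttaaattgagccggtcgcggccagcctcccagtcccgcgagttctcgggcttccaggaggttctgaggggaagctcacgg
Syce2: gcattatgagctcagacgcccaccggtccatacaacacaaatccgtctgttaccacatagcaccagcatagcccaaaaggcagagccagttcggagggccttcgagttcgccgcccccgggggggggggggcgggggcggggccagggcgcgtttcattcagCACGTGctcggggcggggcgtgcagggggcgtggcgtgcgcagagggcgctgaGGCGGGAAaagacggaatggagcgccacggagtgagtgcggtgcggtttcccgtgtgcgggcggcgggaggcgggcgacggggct
Hormad1: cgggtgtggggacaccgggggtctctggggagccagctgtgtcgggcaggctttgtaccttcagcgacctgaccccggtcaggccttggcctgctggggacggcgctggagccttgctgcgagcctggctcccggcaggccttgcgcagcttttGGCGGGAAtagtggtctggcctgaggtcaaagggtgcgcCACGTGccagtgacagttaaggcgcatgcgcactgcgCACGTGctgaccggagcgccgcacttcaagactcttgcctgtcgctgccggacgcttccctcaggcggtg
The E-box began 94 bases before the start in Sycp1, 88 before in Syce2, and 57 and 20 before in Hormad1. The E2F motif began 35 bases before the start in Syce2 and 96 before in Hormad1, and no matches overlapped. Of the 11 genes on the synaptonemal list, 6 (54.5%) had a CACGTG in a window, against 11% of the 12282 genes tested for which the table holds a window. They were Sycp1, Sycp3, Syce2, Tex12, 4930447C04Rik and Hormad1. The E2F motif was in 3 of the 11 (27.3%), against 4.33%. Among all windows of that length in the table the shares were 7.15% and 2.19%. Over all calls, CACGTG was in 10.9% of the 119 genes with a window that rose and in 2.86% of the 35 that fell, and the E2F motif was in 2.52% and 0%. The other motifs searched, TAATTA (4.25% of genes tested) and the cyclic AMP response element TGACGTCA (3.28%), were in none of the 11 genes of the list. They were in 5.88% and 1.68% of the genes that rose and in 8.57% and 0% of those that fell. For each gene the CpG number of its richest window was taken. The median over genes was 8 for those that rose, 12 for those that fell and 20 for all genes tested. These groups had a mean of 1.2, 1.14 and 1.26 windows per gene. A match describes the sequence only and is no sign of binding.

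None of 12 genes for meiotic cohesin and telomere tethering and none of 31 recombination genes passed by limma, with medians of 0.22 and 0.20. At an unadjusted p under 0.05 there were 1 and 5, and voom called 0 and 2. The cohesin median fell below 0 without knockout replicate 2. Of 14 genes for meiotic entry and germ cell identity, Tex101 rose (7.14%, against rises of 1.05% of all genes tested) and none fell. The list's median was 0.94 with 12 of 14 above 0. Tex101 encodes a germ cell surface glycoprotein and stood at 13.6 and 0.870 TPM in controls against 35.4 and 132 TPM in knockouts (limma adjusted p = 0.0397). The replicates differed widely in both groups, and the call was lost without control replicate 2 (limma adjusted p = 0.284), knockout replicate 1 (0.053) or knockout replicate 2 (0.311). Several genes of the list shared a pattern with very low values in control replicate 2, and none of them passed. Stra8, the retinoic acid target that starts meiosis, had 27.1 and 0.123 TPM in controls against 49.7 and 105 TPM in knockouts (limma adjusted p = 0.136). Meioc, a partner of the RNA helicase YTHDC2, had 24.3 and 0.745 TPM against 48.0 and 69.2 TPM (limma adjusted p = 0.197). Taf7l, a germ cell TFIID subunit, had 41.7 and 4.79 TPM against 96.3 and 119 TPM (limma adjusted p = 0.114). On the log2 scale, control replicate 1 lay nearer to the knockouts than to control replicate 2 for Stra8 and Meioc. With control replicate 1 left out, 5 genes of this list rose.

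**Figure D2:**
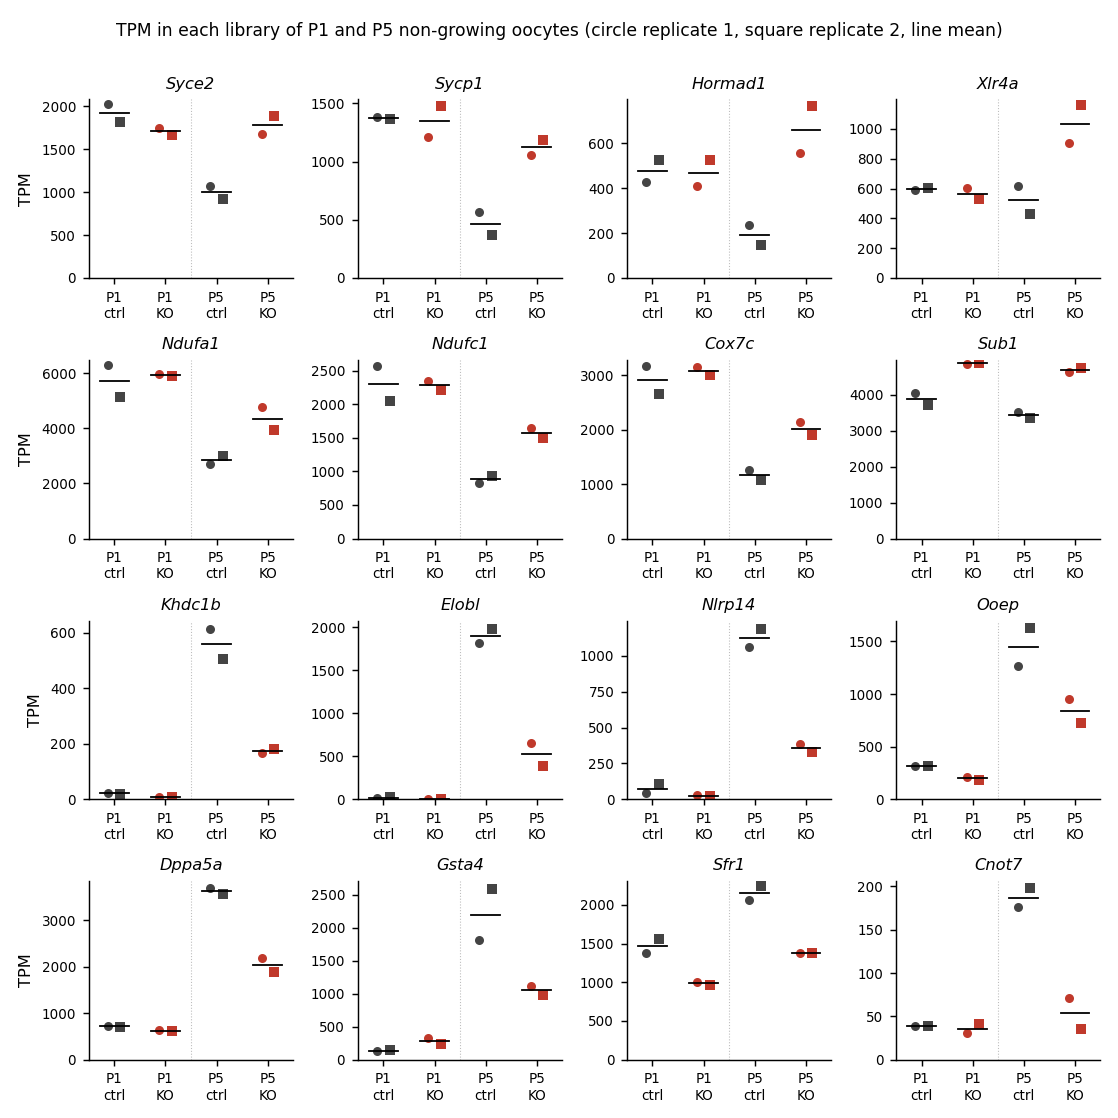
TPM of 16 named genes in each library of P1 and P5 controls and knockouts (y axis, TPM from 0, a separate scale for each gene); circles are replicate 1, squares replicate 2 and horizontal lines the group means. Syce2, Sycp1 and Hormad1 are higher in both P5 knockouts than in both P5 controls, and Khdc1b, Elobl and Nlrp14 are lower.

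Among genes whose products are stored for the egg and embryo, Khdc1b, Khdc1a and Elobl fell. Of 31 other maternal effect and oocyte-specific genes 3 fell and none rose (9.68%, against falls of 0.313% of all genes tested). The median was -0.52 and 23 were below 0. Khdc1b, a KH-domain gene of oocytes at chr1:21383556-21386373, fell from 613 and 507 TPM in controls to 167 and 179 TPM in knockouts (log2 fold change -1.68, SE 0.17, limma adjusted p = 0.00194). Replicates lay close together, and the call held whichever library was left out (limma adjusted p from 0.00558 to 0.0271). Its neighbour Khdc1a fell from 619 and 562 to 250 and 123 TPM (-1.74, SE 0.34, limma adjusted p = 0.0298), and Khdc1c, with 54.4 and 63.1 against 26.4 and 5.20 TPM, did not pass (limma adjusted p = 0.0933). Genes of such a cluster can share reads. Elobl, an elongin B-like gene on chromosome 11, had the largest fall of the 3, from 1818 and 1977 TPM to 656 and 390 TPM (-1.9, SE 0.27, limma adjusted p = 0.0072). The calls for Khdc1a and Elobl were lost without control replicate 2 (0.184 and 0.0732) and without knockout replicate 2 (0.226 and 0.0786), and that of Khdc1a also without control replicate 1 (0.0919).

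The subcortical maternal complex is a protein assembly under the egg cortex that is required for the first cleavages. Of 16 genes for it and for the maternal NLRP proteins 2 fell and none rose (12.5%, against falls of 0.313% of all genes tested). The median was -0.41. Nlrp14 fell from 1062 and 1188 to 382 and 329 TPM (limma adjusted p = 0.0341). Ooep, a core subunit, fell from 1270 and 1626 to 951 and 721 TPM (limma adjusted p = 0.0213). No knockout value overlapped a control, although the gap was narrower for Ooep. Without control replicate 2 the limma adjusted p was 0.272 for Nlrp14 and 0.227 for Ooep, and without knockout replicate 2 it was 0.223 and 0.175. The Nlrp14 call was also lost without control replicate 1 (0.0748) and without knockout replicate 1 (0.114), and voom kept Ooep but not Nlrp14.

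None of 11 zona pellucida and secreted-factor genes passed by limma (7 had an unadjusted p under 0.05, and voom called Zp3 and Gdf9), yet 10 of 11 were below 0, the median was -0.83, and in 8 of 11 both knockouts lay below both controls, against 23.4% of all genes tested. Zp3, a zona pellucida glycoprotein gene, had 1283 and 1536 TPM in controls against 488 and 620 TPM in knockouts (limma adjusted p = 0.081). Gdf9, which encodes an oocyte growth factor needed for follicle growth, had 496 and 487 against 166 and 222 TPM (limma adjusted p = 0.155). The SE of the fit, which is drawn from all 8 oocyte groups, was 0.33 for Zp3 and 0.41 for Gdf9. With the P5 groups fitted alone neither gene passed either. Bmp6 was the exception in direction, at 0.936 and 1.11 TPM in controls and 5.83 and 4.99 TPM in knockouts (limma adjusted p = 0.213). At P1 Zp3 was at 74.4 and 134 TPM in controls against 29.9 and 17.1 TPM in knockouts (limma adjusted p = 0.00793), and Gdf9 at 27.6 and 37.4 against 3.96 and 1.38 TPM (limma adjusted p = 0.00215).

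Of 20 genes of the CCR4-NOT deadenylase, which shortens mRNA tails, and of its BTG/TOB adaptors, 1 fell and none rose. That was 5.0% of the list, against falls of 0.313% of all genes tested, and the median was -0.21. Cnot7, a catalytic subunit, fell from 177 and 198 TPM to 71.6 and 35.2 TPM (log2 fold change -1.87, SE 0.34, limma adjusted p = 0.0217). The limma adjusted p rose to 0.194 when control replicate 2 was left out, to 0.175 when knockout replicate 2 was and to 0.0523 when control replicate 1 was. Btg4, the adaptor that brings this deadenylase to mRNA in maturing eggs, had 314 and 333 against 145 and 113 TPM and did not pass (limma adjusted p = 0.102). Zar1, an mRNA-storage factor of oocytes, had 30.5 and 24.9 against 6.02 and 7.15 TPM (limma adjusted p = 0.112), and Oas1c, an oocyte oligoadenylate synthetase-like gene, had 657 and 741 against 356 and 236 TPM (limma adjusted p = 0.0595). In all 3 both knockouts lay below both controls, as they did in 23.4% of all genes tested.

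Abundant genes outside these groups also fell. Dppa5a, a KH-domain gene of pluripotent and germ cells, fell from 3679 and 3553 TPM to 2185 and 1883 TPM (log2 fold change -0.83, SE 0.11, limma adjusted p = 0.00629). Gsta4, a glutathione transferase gene, fell from 1812 and 2581 to 1115 and 986 TPM (limma adjusted p = 0.0296). Sfr1, which encodes a partner of the recombinase machinery, fell from 2057 and 2240 to 1380 and 1378 TPM (limma adjusted p = 0.0472). All 3 sat among the 8 genes past the test with the highest group means. Without a mean-variance trend none of the 3 calls was kept. Each lost its call without control replicate 2 (limma adjusted p = 0.0599, 0.296 and 0.35) and without knockout replicate 2 (0.0758, 0.202 and 0.233). Without knockout replicate 1 the calls of Gsta4 and Sfr1 were lost (0.0937 and 0.182), and without control replicate 1 that of Sfr1 (0.079).

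A further set of well-expressed genes that fell was chosen for description after their values were seen. Zfp57, a zinc finger protein that guards methylated imprints, fell from 207 and 250 TPM to 89.7 and 85.8 TPM (limma adjusted p = 0.00813). Asf1a, a histone chaperone gene, fell from 253 and 264 to 135 and 81.1 TPM (limma adjusted p = 0.018). Ube2c, the ubiquitin-conjugating enzyme of the anaphase-promoting complex, fell from 498 and 564 to 271 and 204 TPM (limma adjusted p = 0.0207). G3bp2, a stress granule protein gene, fell from 414 and 471 to 236 and 230 TPM (limma adjusted p = 0.0114), and Paip2, which encodes a repressor that binds poly(A)-binding protein, fell from 895 and 1196 to 620 and 508 TPM (limma adjusted p = 0.00932). Eef1a1, a translation elongation factor gene, fell from 1758 and 1809 to 1240 and 1241 TPM (limma adjusted p = 0.0212). Without a mean-variance trend every call of this set but that of Zfp57 was lost. Groups were separate for all 6, and each call was lost without control replicate 2 (limma adjusted p from 0.0825 to 0.202) and without knockout replicate 2 (from 0.0948 to 0.183). Those of G3bp2 and Eef1a1 were also lost without knockout replicate 1 (0.0646 and 0.0999).

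Nuclear genes of oxidative phosphorylation encode the subunits of the 4 respiratory complexes and of the ATP synthase. Of 81 tested 8 rose and none fell (9.88%, against 1.36% of all genes tested and 1.05% for rises), the median was 0.19, 57 were above 0, and in 43 both knockouts were above both controls, against 23.9% of all genes tested. For complex I, Ndufc1 rose from 833 and 933 TPM to 1639 and 1497 TPM (log2 fold change 0.83, SE 0.13, limma adjusted p = 0.0114), Ndufa1, an X-linked gene, from 2719 and 3011 to 4759 and 3950 TPM (0.60, limma adjusted p = 0.038), and Ndufc2 from 1514 and 1343 to 2296 and 2663 TPM (0.79, limma adjusted p = 0.0462). For complex III, Uqcrb rose from 951 and 910 to 1306 and 1272 TPM (0.47, limma adjusted p = 0.0391). For complex IV, Cox7c rose from 1267 and 1073 to 2135 and 1894 TPM (0.79, limma adjusted p = 0.0338). In these 5 genes the knockouts were separate from the controls and the replicates differed by less than the groups.

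For the ATP synthase, Atp5md rose from 222 and 204 to 454 and 417 TPM (1.03, limma adjusted p = 0.0146), Atp5pb from 419 and 278 to 604 and 730 TPM (0.96, limma adjusted p = 0.0457), and Atp5k from 535 and 584 to 1207 and 805 TPM (0.82, limma adjusted p = 0.0498). Of the 8 calls none was kept without control replicate 2 (limma adjusted p from 0.0668 to 0.409), and 1, Atp5k, was kept without knockout replicate 2 (0.0469, others from 0.0818 to 0.306). Without knockout replicate 1 all 8 were lost (from 0.0862 to 0.257), and without control replicate 1 Atp5k, Ndufa1, Ndufc2 and Uqcrb were (from 0.0728 to 0.153). Over other settings the count of the 81 ran from 0 without a mean-variance trend to 9 with voom. At P1 none of the 8 genes passed, and every P1 value was above both P5 controls. Ndufc1, for example, had 2569 and 2043 TPM in P1 controls and 2348 and 2216 TPM in P1 knockouts.

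Of 13 mitochondrially encoded genes 1 rose (7.69%, against rises of 1.05% of all genes tested), none fell, and 11 of 13 were above 0. The gene that rose was mt-Nd1, a complex I subunit gene, from 2507 and 2304 to 3666 and 4267 TPM (limma adjusted p = 0.0309). Higd1a, which encodes a respiratory supercomplex factor, rose from 210 and 204 to 348 and 395 TPM (log2 fold change 0.83, limma adjusted p = 0.012), and Micos10, a cristae organiser gene, from 466 and 396 to 771 and 761 TPM (limma adjusted p = 0.0333). Both were chosen after their values were seen. The call was lost for these 3 genes without control replicate 2 (0.271, 0.114 and 0.298) and without knockout replicate 2 (0.243, 0.137 and 0.179). The mt-Nd1 call was also lost without control replicate 1 (0.0568) or knockout replicate 1 (0.0719), and that of Micos10 without knockout replicate 1 (0.15). For Higd1a the knockout effect was 1.17 larger at P5 than at P1 (limma adjusted p of the difference = 0.0266).

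Transcript length moved with the change. Among protein-coding genes with a mean of 50 TPM or more, the 162 whose exons span under 1000 bases had a median log2 fold change of 0.18 at P5 and 0.08 at P1. The median was -0.04 for 645 genes of 1000 to 2000 bases, -0.12 for 988 of 2000 to 4000 bases and -0.10 for 676 longer ones. By limma 9 of the 162 short genes passed at P5 in either direction, oxidative phosphorylation genes among them. In the longer sets 14 of 645, 20 of 988 and 9 of 676 passed. Because the 9 include oxidative phosphorylation genes, they are no separate background for that list. Whether the 1.36% of all genes tested is a fair background for short, abundant genes was not tested. Of the 8 oxidative phosphorylation genes that rose, 4 were under 1000 bases, and Atp5pb, the longest, had 4105. The part of length in the rises was not tested. The 84 cytoplasmic ribosomal protein genes, many of which are also short, had a median of 0.03, and none passed by limma, with 10 at an unadjusted p under 0.05 and 2 called by voom.

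Sub1, a transcription coactivator gene listed with the oocyte factors and one of the most abundant genes, rose from 3508 and 3351 TPM to 4621 and 4746 TPM (log2 fold change 0.45, SE 0.06, limma adjusted p = 0.00629). Its replicates lay close together in both groups. The P1 values were 4047 and 3707 TPM against 4843 and 4880 TPM (limma adjusted p = 0.0192). The P5 call was lost without control replicate 2 (0.0668) and without knockout replicate 2 (0.0732), and the limma adjusted p was 0.535 without a mean-variance trend. Gm15389, a long noncoding RNA at chr1:107687008-107693514, stood at 2062 and 1255 TPM in controls and 5616 and 5902 TPM in knockouts (1.84, SE 0.20, limma adjusted p = 0.00243). It was at 2223 and 2098 against 6241 and 6619 TPM at P1 (limma adjusted p = 0.00283).

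The X chromosome held only rises. Of 837 X-linked genes tested 28 passed (3.35%) and all 28 rose, against 244 of 19214 autosomal genes (1.27%), of which 181 rose and 63 fell. Over the X-linked genes at 1 TPM or more the median log2 fold change was 0.16 with 59.2% of 682 above 0, against -0.02 and 48.8% on the autosomes. The X median was above the autosomal one in the main fit and in all 18 alternatives. At P1 10 X-linked genes rose and 6 fell. The count of calls on the X rested on single libraries, with 53 rises without control replicate 1, 3 without control replicate 2, 4 rises and 2 falls without knockout replicate 1, and none without knockout replicate 2.

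**Figure D3:**
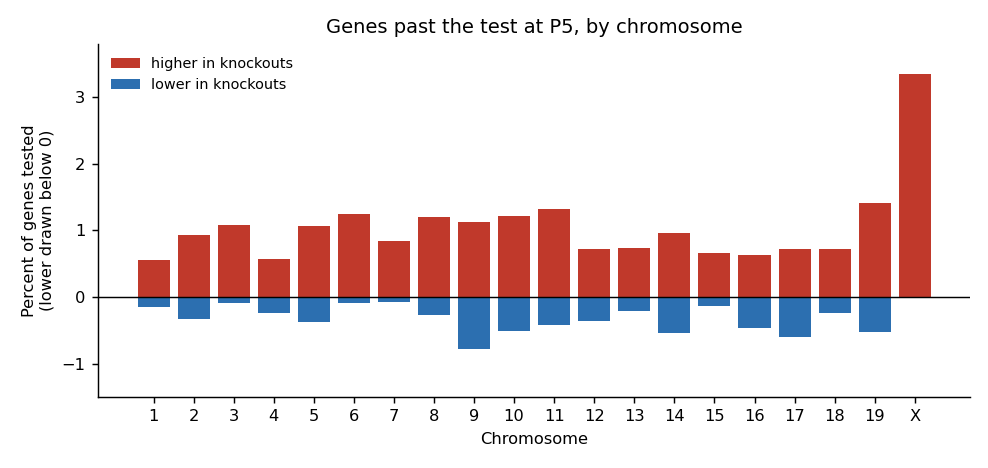
Percent of genes tested on each chromosome that rose (above 0) or fell (below 0) in P5 knockouts by the limma test. The X chromosome has the highest share of rises, with 28 of 837 genes, and no falls.

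Part of the X-linked change lay in germline gene families. Of 20 MAGE and Xlr genes, named for melanoma antigens and X-linked lymphocyte-regulated proteins, 4 rose and none fell, against rises of 1.05% of all genes tested and 3.35% of X-linked genes tested. The median was 1.28, with 18 above 0. Xlr4a rose from 615 and 432 TPM to 905 and 1161 TPM (limma adjusted p = 0.0216), Xlr5a from 61.0 and 29.7 to 133 and 148 TPM (limma adjusted p = 0.0391), and Xlr5c from 73.6 and 9.86 to 210 and 248 TPM (limma adjusted p = 0.0351). Xlr5b, with 41.2 and 14.3 against 85.6 and 99.8 TPM, did not pass (limma adjusted p = 0.0511). Magea5 rose from 2.15 and 0 TPM to 21.01 and 19.99 TPM (limma adjusted p = 0.0072). In every one of these genes control replicate 2 was the lowest library. The calls were lost without it (limma adjusted p from 0.0582 to 0.354) and without knockout replicate 2 (from 0.0701 to 0.237), and those of Xlr5a and Xlr5c also without knockout replicate 1 (0.143 and 0.134). Copies in these families are near-identical and can share reads, so the genes are not independent.

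X-linked genes outside that list and chosen after their values were seen included Chst7, a carbohydrate sulfotransferase gene, at 56.3 and 20.4 TPM in controls and 221 and 191 TPM in knockouts (log2 fold change 2.56, limma adjusted p = 0.0176). Tceal9 stood at 523 and 380 against 1135 and 1171 TPM (limma adjusted p = 0.0334), and Bex3, of the same BEX/TCEAL gene cluster, at 246 and 172 against 535 and 544 TPM (limma adjusted p = 0.0436). Each of the 3 also rose at P1. Chst7 was at 4.81 and 2.78 TPM in P1 controls and at 58.4 and 63.8 TPM in P1 knockouts (3.73, limma adjusted p = 0.00149). The rule for naming also took Fthl17e, a ferritin heavy chain-like gene, which stood at 6.31 and 0 against 26.6 and 20.3 TPM at P5 (limma adjusted p = 0.0464), and at P1 it was listed at 0 in both controls with 19.4 and 21.6 TPM in knockouts. The P5 calls of these 4 genes were lost without control replicate 2 (limma adjusted p from 0.15 to 0.38) and without knockout replicate 2 (from 0.125 to 0.232), and all 4 also without knockout replicate 1 (from 0.102 to 0.199).

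The largest rises by fold lay at low levels. Inha rose from 0.0750 and 2.18 TPM to 13.1 and 43.8 TPM (limma adjusted p = 0.0174), and the receptor gene Amhr2, which is also a supporting-cell marker, was listed at 0 in both controls with 1.74 and 4.77 TPM in knockouts (limma adjusted p = 0.0862). Aadac, an arylacetamide deacetylase gene, rose from 1.77 and 0 TPM to 13.7 and 25.3 TPM (limma adjusted p = 0.00629), and Akr1c14, a hydroxysteroid dehydrogenase gene, from 0 and 0.0685 to 7.97 and 15.2 TPM (limma adjusted p = 0.0464). Pcolce, a collagen-processing enhancer gene, went from 1.30 and 0.0290 to 12.5 and 15.6 TPM (limma adjusted p = 0.0145), and Cers3, a ceramide synthase gene, from 2.92 and 1.16 to 21.8 and 33.0 TPM (limma adjusted p = 0.0314). In Akr1c14 the controls rested on 0 and 2 recovered reads and in Pcolce on 45 and 1. The keratin gene Krt87 was listed at 0 in both controls and had 6.05 and 6.67 TPM in knockouts, on 134 and 135 reads, and Hs3st6 was listed at 0 in both controls and had 3.03 and 5.30 TPM, on 40 and 64 reads. The lincRNA Gm30735, chosen after its values were seen, had 3.503 and 0 TPM against 38.5 and 148 TPM (limma adjusted p = 0.00813). Without control replicate 2 the limma adjusted p of Inha was 0.0507, of Aadac 0.0543, of Akr1c14 0.272, of Pcolce 0.158, of Cers3 0.29 and of Gm30735 0.0761. Without knockout replicate 2 the 6 values ran from 0.0758 to 0.283. Without knockout replicate 1 those of Akr1c14 (0.113), Cers3 (0.102) and Pcolce (0.0635), and without control replicate 1 those of Inha (0.0662) and Akr1c14 (0.124), were also above 0.05.

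The largest falls outside the maternal lists were also of modest level. Rpusd1, a pseudouridine synthase domain gene, fell from 17.9 and 17.1 TPM to 0.340 and 3.29 TPM (limma adjusted p = 0.0434). Pkib, a protein kinase A inhibitor gene, fell from 24.0 and 25.7 to 7.74 and 2.97 TPM (limma adjusted p = 0.0247), Angptl6, an angiopoietin-like gene, from 17.3 and 25.3 to 3.18 and 3.42 TPM (limma adjusted p = 0.0158), and Jup, the plakoglobin gene of cell junctions, from 13.8 and 12.5 to 2.92 and 3.17 TPM (limma adjusted p = 0.0359). Hsd17b2, a steroid dehydrogenase gene, fell from 10.7 and 7.26 to 0.748 and 1.23 TPM (limma adjusted p = 0.0342). Its list of 10 steroid dehydrogenases thus held 1 rise, Akr1c14, and 1 fall (20% called, against 1.36% of all genes tested). The 5 genes had no overlap between groups, and all 5 calls were lost without control replicate 2 (limma adjusted p from 0.137 to 0.255) and without knockout replicate 2 (from 0.0732 to 0.194). Without control replicate 1 all but Angptl6 were lost (from 0.0611 to 0.11), and without knockout replicate 1 all but Pkib (from 0.0889 to 0.248).

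Many lists held no gene past the test by limma. Over the 387 genes of the pathway lists without a call, 54 had an unadjusted p under 0.05 (30 higher, 24 lower) and voom called 12. The lists without a call included 20 imprinted genes, 30 genes of the p53 pathway and apoptosis, 22 of PI3K signalling and Foxo3, which hold oocytes dormant, 22 of the piRNA pathway, 9 of DNA methylation, 13 of PRC1.6 and its partners, 18 of mRNA storage, 16 of the integrated stress response, 22 of immediate early genes and 37 of the proteasome. None of 30 mitotic cell cycle genes passed, although 23 were below 0 and the median was -0.33. For PI3K and Foxo3 19 of 22 were below 0 with a median of -0.27. These 2 medians kept their sign in all 18 alternatives.

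**Figure D4:**
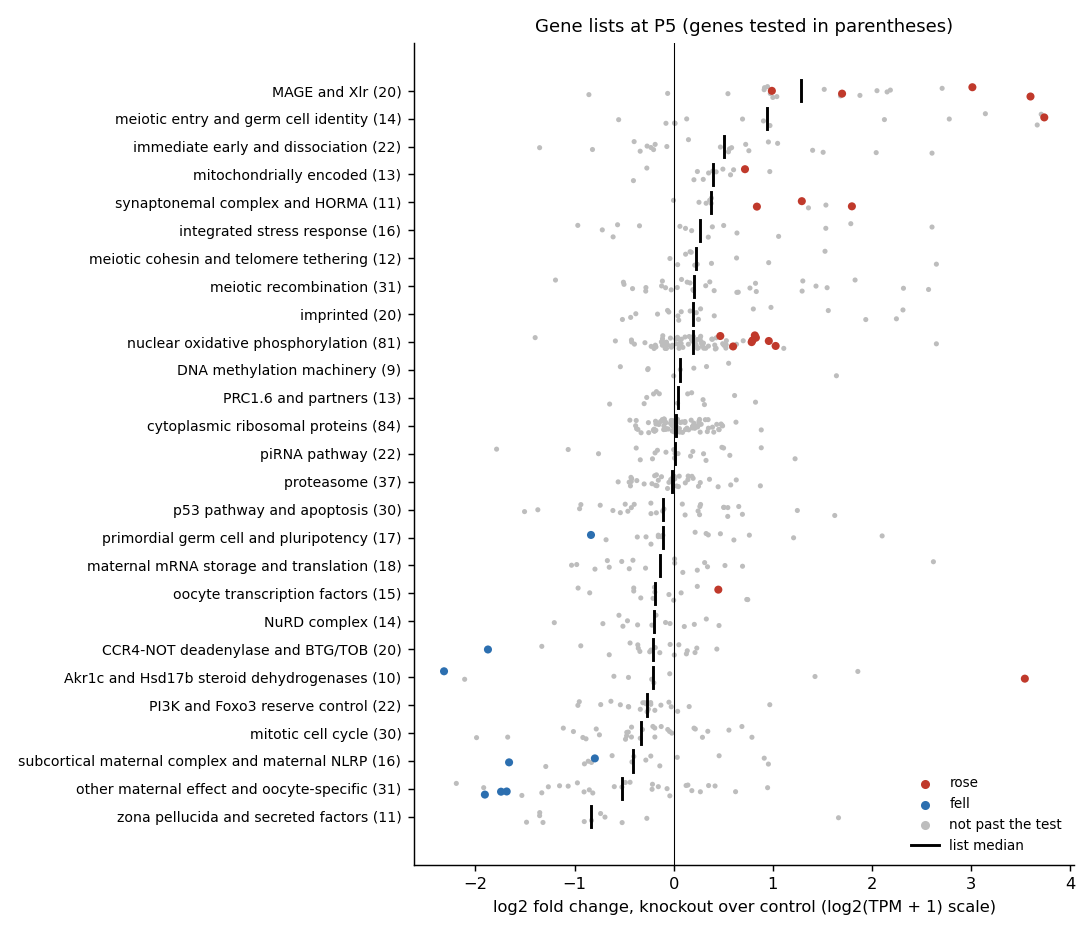
Log2 fold change at P5, knockout minus control (x axis), for each tested gene of 27 lists (rows); coloured points passed the limma test, grey points did not, and the vertical bar on each row is the median of the list. MAGE and Xlr genes have the highest median, 1.28, and zona pellucida and secreted factors the lowest, -0.83.

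The P1 comparison shares no library with the P5 one, so the lists of genes could be set side by side. Both come from 1 fit with a shared spread per gene, so a gene of small spread passes more easily at both ages. At P1 348 genes passed (1.70% of those tested). There 50 of the 214 P5 rises and 13 of the 64 P5 falls had a log2 fold change of exactly 0, so they could not be shared. Of the 214 rises at P5, 29 also rose at P1, which is 13.6% of the P5 rises and 16.5% of the 176 P1 rises. Of the 64 falls at P5, 14 also fell at P1, which is 21.9% of the P5 falls and 8.14% of the 172 P1 falls. The share of all genes tested that rose at P1 was 0.86% and that fell 0.84%, which is not the overlap to be met without a shared change. The shared falls included Khdc1b, Khdc1a, Elobl, Nlrp14, Ooep, Zfp57, Asf1a, G3bp2 and Ube2c, and the shared rises included Sub1, Chst7, Tceal9, Bex3, Fthl17e and Gm15389. For the maternal genes P1 levels were many times lower. Khdc1b was at 21.9 and 19.2 TPM in P1 controls against 8.19 and 8.99 TPM in P1 knockouts (log2 fold change -1.16 at P1, -1.68 at P5), and Elobl at 12.4 and 21.8 against 4.83 and 6.38 TPM (-1.42 and -1.9). The difference between the ages did not pass for either (limma adjusted p = 0.691 and 0.987), which does not show that the effects are equal.

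Gsta4 had opposite effects at the 2 ages. It was at 125 and 145 TPM in P1 controls and at 332 and 238 TPM in P1 knockouts, a rise of 1.06 on the log2 scale (limma adjusted p = 0.0221), and it fell by 1.04 at P5, so that the effects differed by -2.10 (limma adjusted p of the difference = 0.0111). Among the P5 rises 3 genes had fallen at P1, the antisense gene Gm45040, the pseudogene Ndufa12-ps and the histone gene H2bfm. In all, the test of P5 minus P1 passed for 64 genes (0.313%), 47 with a more positive effect at P5 (0.23%) and 17 with a more negative one (0.083%). Of these 33 were also called at P5 and 35 at P1.

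**Figure D5:**
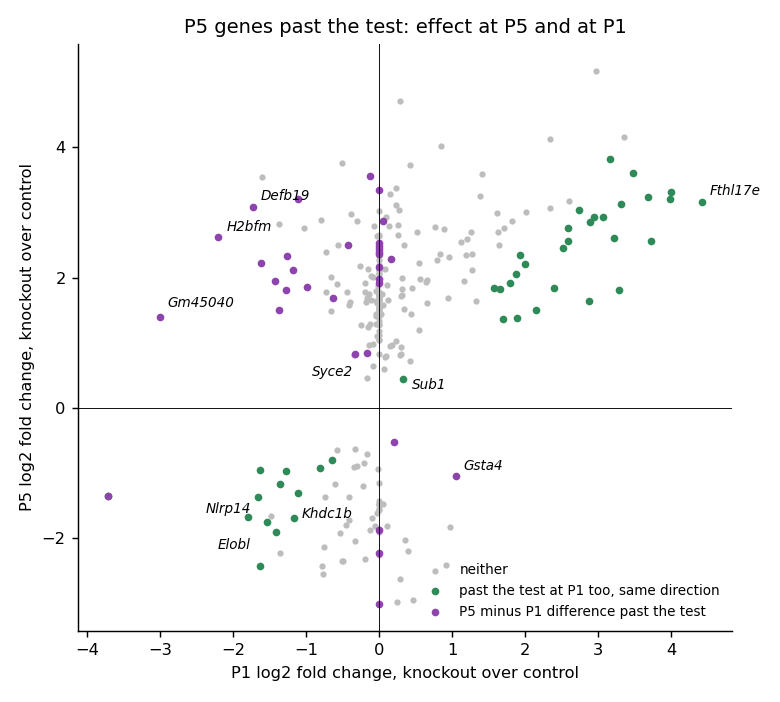
Log2 fold change at P1 (x axis) against P5 (y axis), knockout minus control, for the 278 genes past the limma test at P5; green points passed in the same direction at P1, purple points had a difference between ages past the test, and grey points neither. Of the genes shown, 29 rose and 14 fell at both ages.

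Few P5 calls were shared with the P10 non-growing oocytes, whose knockout used another Cre and where 393 genes passed (1.92%). Of the P5 rises 7 (3.27% of them, and 3.35% of the P10 rises) also rose at P10, among them Cers3, Xlr5c and mt-Nd1, against 1.02% of all genes tested. Of the P5 falls 5 (7.81%, and 2.72% of the P10 falls) also fell, among them Elobl, Ube2c and Angptl6, against 0.899%. No gene had opposite calls. At P10 121 of the 214 P5 rises and 21 of the 64 P5 falls had a log2 fold change of exactly 0, so they could not be shared. These values too come from the fit with a shared spread per gene.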

How the data were processed

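The authors deposited 1 table of TPM values for the oocyte libraries, made from paired-end 150-bp reads. Per the submitters' processing notes, Trimmomatic 0.39, STAR 2.5.4b, SAMtools 1.9 and featureCounts 2.0.1 were used with GRCm38 (mm10), and neither the annotation nor the strand setting is given in the sources used here. TPM carries no depth, so whole reads were recovered from TPM and GENCODE M21 exon lengths (52131 of 53722 symbols matched), and between 98.67% and 99.15% of the values below 20 reads came out whole to within 0.05. These reads served to describe depth and for 2 alternatives.

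Genes at 1 TPM or more in 2 of 16 libraries (20470) were fitted with limma 3.58.1 (R 4.3.3) on log2(TPM + 1), with 8 group means, 8 residual degrees of freedom, a mean-variance trend and two-sided Benjamini-Hochberg adjusted p-values at 0.05. The 16 libraries share 1 estimate of spread per gene because 2 libraries give little of their own. Of the genes past the test with a group mean of 5 TPM, no overlap and no predicted-gene symbol, those named were the 12 largest rises and falls, the 10 smallest p, the 8 highest means, and up to 4 members of each list. Others are said to be chosen after their values were seen, as were Rbbp7, Sycp3, Stra8, Meioc, Taf7l, Amhr2, Btg4, Zar1, Oas1c, Khdc1c, Xlr5b, Gm15389 and Hs3st6. The 27 gene lists, 7 marker lists and the member rule were chosen with earlier results of these data known, so a list's count is not independent evidence of its direction. RefSeq promoter windows were found for 12282 of the genes tested and searched on both strands for an E-box (CACGTG), a homeobox core (TAATTA), a cyclic AMP response element (TGACGTCA) and an E2F motif (TTCCCGCC). The fit was tested on simulated data. Of the 18 alternatives, 16 were planned and 2 (voom on recovered reads, a filter of 50 recovered reads) were added after seeing the data. The spermatogonia libraries were not used here.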

Additional observations from a re-analysis of the deposited data

Results flagged for a closer look

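Each gene below had a knockout effect that differed between P5 and P1 by the limma test of the difference itself (adjusted p under 0.05), and values are the P5 effect minus the P1 effect on the log2(TPM + 1) scale.

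Among well-expressed genes the difference was 1.01 for Syce2, 1.17 for Higd1a, -0.73 for Eef1a1 and -2.10 for Gsta4. Eef1a1 stood at 1269 and 1453 TPM in P1 controls against 1607 and 1531 TPM in P1 knockouts, the opposite order to P5. The antisense gene Gm45040 differed by 4.41, with 45.1 and 36.3 TPM in P5 controls, 99.6 and 119 TPM in P5 knockouts, 12.5 and 11.99 TPM in P1 controls and 0.867 and 0.466 TPM in P1 knockouts.

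At lower levels the difference was 3.68 for Aadac, 3.6 for Hs3st6, 2.82 for Krt87, 4.83 for H2bfm, 4.68 for AA545190 and 3.35 for the pseudogene Rhox11-ps2. It was 4.82 for the defensin gene Defb19, which rested on 2, 0, 43 and 29 reads in the P5 libraries (controls first), and 4.32 for Snord42b, a small nucleolar RNA of 69 bases with 0, 0, 4 and 7 reads. On the negative side it was -3.01 for Gm23772, a small nucleolar RNA of 102 bases with 7, 6, 0 and 0 reads, -2.96 for Gm24169 (110 bases), -2.99 for E330018M18Rik, -2.76 for Gm35161 and -2.69 for Gm32357.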

How the results depend on the processing

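The count of 278 genes past the test at P5 was 56 with a minimum of 5 TPM, 122 with a minimum of 50 recovered reads and 449 with no minimum. With the P5 groups fitted alone it was 0. With the replicate number as a block it was also 0 (2303 unadjusted). Leaving out 1 library at a time gave 22 to 396. The other 9 alternatives gave 217 to 408. The share of rises, 77.0% in the main fit, was 85.5% with median centring, which moved the median of all genes by 0.12, 66.1% with a minimum of 5 TPM and 63.1% with P1 and P5 fitted alone. The count of 64 genes whose effect differed between P5 and P1 was 139 with a pseudocount of 0.1, 16 with a minimum of 5 TPM, 38 with a minimum set on the P5 libraries, 318 with no minimum, 10 with P1 and P5 fitted alone, 181 with voom, 17 with a minimum of 50 recovered reads, 0 with the replicate block, and 34 to 90 without 1 library. The cause of these shifts was not tested. The labels do not say whether libraries of the same replicate number belong together. The deviations of same-numbered P5 libraries correlated at -0.049, which cannot exclude a shared litter, day or batch. No named gene reversed direction. Without a mean-variance trend 25 of the 52 genes named by rule remained past the test. In each fit without 1 library, between 49 and 51 of the 52 were tested. Of the 52 genes named by rule, 32 remained past the test when control replicate 1 was left out, 4 when control replicate 2 was, 17 when knockout replicate 1 was and 3 when knockout replicate 2 was. The count of 8 oxidative phosphorylation rises was 2 with a minimum of 5 TPM and 3 with a minimum of 50 recovered reads. With 2 libraries a group, the precision of every value is limited by their number.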
